A study of Mus musculus with 4 samples.

Results

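The 10 Notch pathway genes were followed through ChIP-seq peak lists of mouse colorectal tumour organoids: the receptors Notch1, Notch2 and Notch3, the ligands Jag1, Jag2, Dll1 and Dll4, the DNA-binding factor Rbpj, and the target genes Hes1 and Hes5. They were chosen by name, 10 of the 21853 protein-coding genes of GENCODE M21 that have a protein-coding transcript, and all 10 were found in the annotation. The libraries were made with antibodies against KMT9alpha, KMT9beta and H4K12me1 (histone H4 monomethylated at lysine 12), with 1 library each, and an input library without antibody is not analysed here. All came from the same AOM/DSS tumour organoids (clone 3, passage 14), a culture from a tumour that azoxymethane and dextran sulfate sodium induce in the colon. The medium contained murine EGF. The treatment text names both 1 µM tamoxifen and vehicle without assigning either to a library. No genotype is given, and with 1 organoid clone and 1 library per antibody no value below has a replicate check and no p-value was computed.

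The methyltransferase KMT9, known to place H4K12me1, is built from the catalytic subunit KMT9alpha, encoded by N6amt1, and KMT9beta, encoded by Trmt112. In the Notch pathway a ligand on 1 cell binds a receptor on its neighbour, the receptor is cleaved, and its intracellular domain enters the nucleus, joins the protein made from Rbpj and switches on target genes such as Hes1. In the intestinal crypt this signal keeps stem and progenitor cells dividing and holds them back from the secretory fate, largely because Hes1 represses the secretory factor gene Atoh1. Notch1 and Notch2 are the receptors known to act there, and Dll1 and Dll4 the ligands known to be needed, in mice. The data are from a bulk culture, so a peak does not say in which cells it arose, and no expression values were analysed here.

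A promoter is taken here as 1 kb either side of the start of any protein-coding transcript, a promoter peak as a deposited peak sharing 1 bp or more with it, and a body peak as a peak that touches the gene and none of its promoters. Scores are the authors' own value for each peak, with none below 50, and are used only within 1 list. Coordinates are those of mm10. In the KMT9alpha list 4861 of 26146 peaks carry a score of exactly 3100 and the highest promoter score is 3233.06, so genes at 3100 are tied and cannot be ranked. The depth of the libraries is unknown, and a promoter without a peak is only one where none was called.

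The bases just upstream of some starts are shown first, because CpG content and the binding motif of the RBPJ protein are set beside the peaks described below. Sequences were read from RefSeq's promoter table (GRCm38.p6), in which 9 of the 10 genes were matched, with 11 starts: Notch1, Notch2, Notch3, Jag1, Jag2, Dll1, Dll4, Rbpj and Hes5. Upstream of the starts of Notch2, with a KMT9alpha score of 3100, and Dll4, with a much lower KMT9alpha score, CpG dinucleotides are in capitals.
Notch2, chr3:98013288-98013537, plus strand: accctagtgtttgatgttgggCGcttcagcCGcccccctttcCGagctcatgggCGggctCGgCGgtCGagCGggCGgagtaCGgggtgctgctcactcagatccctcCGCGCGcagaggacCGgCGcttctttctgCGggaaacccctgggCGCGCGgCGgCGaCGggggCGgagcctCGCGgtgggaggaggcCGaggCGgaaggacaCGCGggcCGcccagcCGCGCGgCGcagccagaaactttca
Dll4, chr2:119325534-119325783, plus strand: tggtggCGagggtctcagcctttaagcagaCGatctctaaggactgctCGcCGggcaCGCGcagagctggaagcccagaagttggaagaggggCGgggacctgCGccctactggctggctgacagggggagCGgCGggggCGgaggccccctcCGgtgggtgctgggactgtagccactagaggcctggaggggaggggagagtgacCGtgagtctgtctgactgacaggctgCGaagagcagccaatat
The 250 bases of Notch2 hold 34 CpG and those of Dll4 hold 14, and both are above the median of 6 over the 32851 windows of the table. Notch2 has as many CpG as, or more than, 97.0% of those windows, and Dll4 as many as, or more than, 72.6%. The count did not fully order the genes by KMT9alpha score. Of the genes at 3100, Jag2 held 54 CpG, Jag1 20 and Rbpj 21 and 25 in its windows. Notch1 held 16 at 3047.7. Among the lower scores, Notch3 held 17 at 497.9 and Hes5 held 32 at 366.76. Dll1, with a score of 342.16, has 2 windows. Its KMT9alpha peak covered part of the window with 13 CpG and did not touch the one with 21.

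The core of the RBPJ motif, TGGGAA, or TTCCCA on the other strand, was searched in the 250 bases upstream of each start on both strands. It is in capitals in the sequences of Hes5, a gene that Notch switches on, and Rbpj, which encodes the factor itself.
Hes5, chr4:154960673-154960922, plus strand: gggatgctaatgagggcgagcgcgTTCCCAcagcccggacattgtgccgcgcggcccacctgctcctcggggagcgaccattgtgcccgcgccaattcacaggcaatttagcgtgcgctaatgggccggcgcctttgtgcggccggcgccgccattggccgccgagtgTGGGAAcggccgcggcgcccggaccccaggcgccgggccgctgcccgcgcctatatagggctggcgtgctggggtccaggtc
Rbpj, chr5:53590096-53590213, plus strand: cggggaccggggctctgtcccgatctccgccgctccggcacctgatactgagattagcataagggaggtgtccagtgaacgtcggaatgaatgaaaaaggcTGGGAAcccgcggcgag
Hes5 held 2 matches, at positions -226 and -82 from its start, and Rbpj held 2, at positions -149 (shown) and -65 (not shown) from the start that RefSeq places at 53590346. None of the windows of the other 7 matched genes held the core, which is present in 21.6% of all windows in the table. A longer form, CGTGGGAA, or TTCCCACG on the other strand, is present in 0.636% of all windows and in none of the 11. No other longer form was searched. In the sequence printed above, both Hes5 matches extend to a form with T in place of the first C, TGTGGGAA or TTCCCACA. At Hes5 the match at -82 lay inside a peak of each library, and the match at -226 lay inside KMT9beta and H4K12me1 peaks but not in a KMT9alpha peak. Both of the Rbpj matches lay inside KMT9alpha and KMT9beta peaks and outside H4K12me1. A match is a stretch of letters and not evidence that the factor is bound.

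Every one of the 10 genes carried promoter peaks of KMT9alpha, KMT9beta and H4K12me1. Among all protein-coding genes KMT9alpha was called at 54.2% (95% interval 53.6 to 54.9), KMT9beta at 65.1% (64.4 to 65.7), H4K12me1 at 44.9% (44.3 to 45.6) and all 3 together at 35.5% (34.8 to 36.1). These intervals are exact binomial (Clopper-Pearson) and cover counting error only. The pattern of the 10 genes is thus shared by 7747 genes. In all 10 the peaks of the 3 libraries met at the same start, and in all 10 some bases of the promoter were covered by all 3, from 470 bp at Dll1 to 1288 bp at Jag2.

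Promoters of these genes are rich in CpG, and peaks of each library were called more often at genes of higher CpG classes. With genes divided into 5 equal classes by the observed to expected CpG ratio of their most CpG-rich promoter, 6 of the 10 (Notch2, Jag1, Jag2, Dll1, Rbpj and Hes1) fell in the highest class, Notch1 and Hes5 in the class below it, and Notch3 and Dll4 in the middle class. All 3 libraries were called at 69.7% of the genes in the highest class, at 56.4% in the next and at 39.4% in the middle class. KMT9alpha, counted by itself, was called at 92.5%, 85.8% and 69.3% of the genes in these classes and KMT9beta at 96.5%, 92.2% and 80.1%, so for the 2 highest classes the count of 10 is near these shares. H4K12me1 was called at 74.1%, 63.8% and 51.2%. In the class second from the bottom, which holds none of the 10, KMT9alpha was called at 20.4%, KMT9beta at 43.3%, H4K12me1 at 28.0% and all 3 at 10.3%, and in the lowest class at 3.23%, 13.3%, 7.66% and 1.44%. How far CpG content accounts for the count of 10 was not tested.

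**Figure D1:**
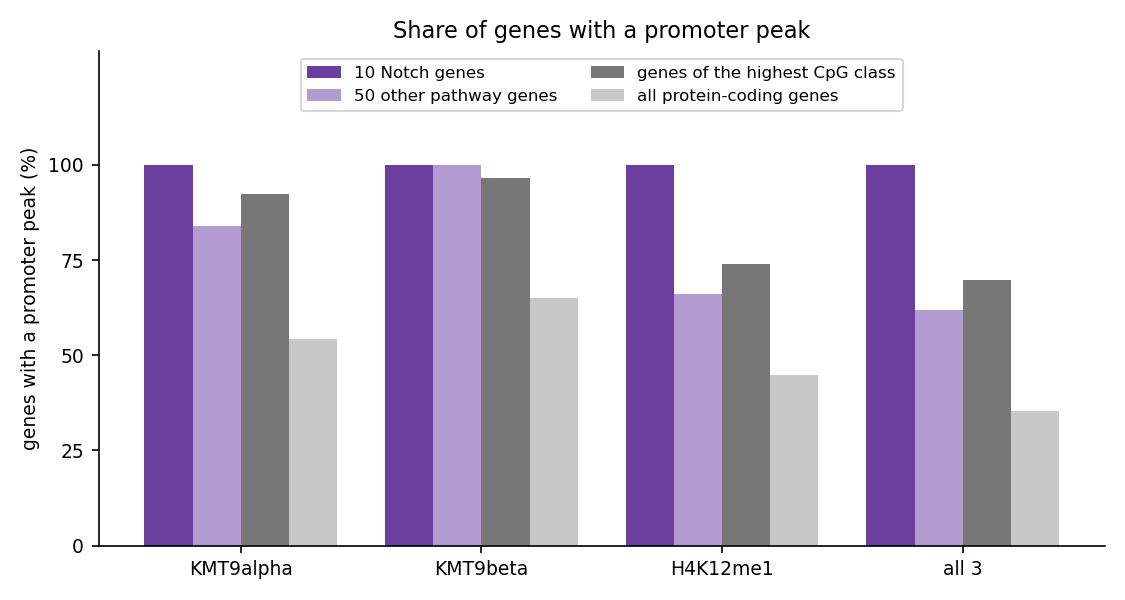
Bars give the percentage of genes with a promoter peak of each library and of all 3, for the 10 Notch genes, the 50 other pathway genes, genes of the highest CpG class and all protein-coding genes. All 10 Notch genes have each of the 3, while the share with all 3 is 69.7% in the highest CpG class and 35.5% over all genes.

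The receptors differed in KMT9alpha. Notch1 (chr2:26457903-26516663, minus strand) had a highest promoter score of 3047.7 in KMT9alpha, 716.79 in KMT9beta and 122.4 in H4K12me1. Notch2 (chr3:98013527-98150361, plus strand) had 3100, 381.53 and 148.07 for the same libraries. Notch3 (chr17:32120820-32166852, minus strand), a receptor best known from smooth muscle and pericytes, had 497.9, 332.46 and 221.75. Notch3 therefore had the lowest KMT9alpha score and the highest H4K12me1 score of the 3 receptors, at percentiles 21.4 and 88.9 of all promoter peaks in those lists. The KMT9beta score of Notch1 was the highest of the 10 genes, at percentile 98.1 of the KMT9beta promoter peaks. With windows of 5 kb the H4K12me1 score of Notch1 was 194.11, and at the more upstream of its 2 starts alone its scores were 251.71 in KMT9alpha and 323.2 in KMT9beta.

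Among the ligands the Jagged and Delta-like genes parted in KMT9alpha and H4K12me1. Jag1 (chr2:137081456-137116644, minus strand) scored 3100 in KMT9alpha, 321.16 in KMT9beta and 146.95 in H4K12me1. Jag2 (chr12:112907819-112929776, minus strand) had 3100, 369.17 and 353.31, and its H4K12me1 score, at percentile 97.1 of promoter peaks, was the highest of the 10 genes. Dll1 (chr17:15367354-15376872, minus strand) had 342.16, 207.02 and 64.59, the lowest KMT9alpha and the lowest H4K12me1 score of the 10 in windows of 1 kb. Dll4 (chr2:119325784-119335962, plus strand) had 631.54, 428.42 and 76.81. The H4K12me1 scores of Dll1 and Dll4 stood at percentiles 9.41 and 34.1 of promoter peaks. Both were also below the median score of all H4K12me1 peaks, and with peaks at or above that median only, neither promoter had the mark. These low H4K12me1 scores held for the near surroundings of the start: with windows of 5 kb Dll1 had 168.08 and Dll4 155.91, both above the 146.95 of Jag1 and the 101.7 of Rbpj. In KMT9beta the order was different, with Dll4 the highest of the 4 ligands and Dll1 the lowest, but with windows of 2.5 or 5 kb Jag2 had 564 and was the highest.

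Rbpj (chr5:53466152-53657362, plus strand) scored 3100 in KMT9alpha, 669.6 in KMT9beta and 101.7 in H4K12me1 at its promoter. Its KMT9alpha promoter peak was among the widest of its list, with 3007 bp (percentile 99.0 of widths), while its H4K12me1 peak there measured 781 bp.

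The 2 target genes differed in opposite directions for the subunits and the mark. Hes1 (chr16:30064384-30067796, plus strand), the repressor that mediates Notch output in the crypt, scored 3100 in KMT9alpha, 461.12 in KMT9beta and 171.27 in H4K12me1. Hes5 (chr4:154960923-154962371, plus strand), a related repressor known mainly from neural progenitors, had 366.76, 153.62 and 295.29. In windows of 1 kb Hes5 was thus lower than Hes1 for both subunits and higher for the mark, and its KMT9beta score was the lowest of the 10 genes. With windows of 5 kb Hes5 also had 3100 in KMT9alpha, a tie with Hes1, and 210.81 in KMT9beta. When the peak midpoint had to lie in the window, Hes1 had no KMT9alpha promoter peak and scored 283.72 in KMT9beta and 66.52 in H4K12me1.

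Set in order, KMT9alpha scores left a wide gap: Notch2, Jag1, Jag2, Rbpj and Hes1 stood at 3100 and Notch1 at 3047.7, whereas Dll4, Notch3, Hes5 and Dll1 lay between 342.16 and 631.54. The 4 low scores were at percentiles 16.3 to 25.1 of KMT9alpha promoter peaks. Of these genes, Notch3 and Dll4 were in the middle CpG class, Hes5 in the class above it and Dll1 in the highest. The genes at 3100 were all in the highest class, and Notch1 was in the class below it. How far CpG content accounts for the gap was not tested. Notch1 was at percentile 59.3 and the tied score of 3100 at 79.3, with ties split evenly, so many other promoter peaks share the high values. The highest KMT9alpha promoter score had a median of 3073.85 over the 10 genes, against 2647.02 over the 11854 genes with such a peak, and 6 of the 10 lay above the latter value. KMT9beta scores ranged from 153.62 to 716.79 with a median of 375.35, against 206.49 over 14219 genes, and 9 of the 10 lay above it, with Dll1 only just so and Hes5 below. H4K12me1 scores ranged from 64.59 to 353.31 with a median of 147.51, against 104.12 over 9820 genes, and 7 of the 10 lay above it, Rbpj, Dll4 and Dll1 being the exceptions. With 1 library each, the error of a single score is not known, so neighbours in these orders cannot be separated. Medians above those of all genes were not particular to the 10. Over the 50 other pathway genes, those with a peak had medians of 3100 in KMT9alpha, 244.64 in KMT9beta and 133.47 in H4K12me1.

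**Figure D2:**
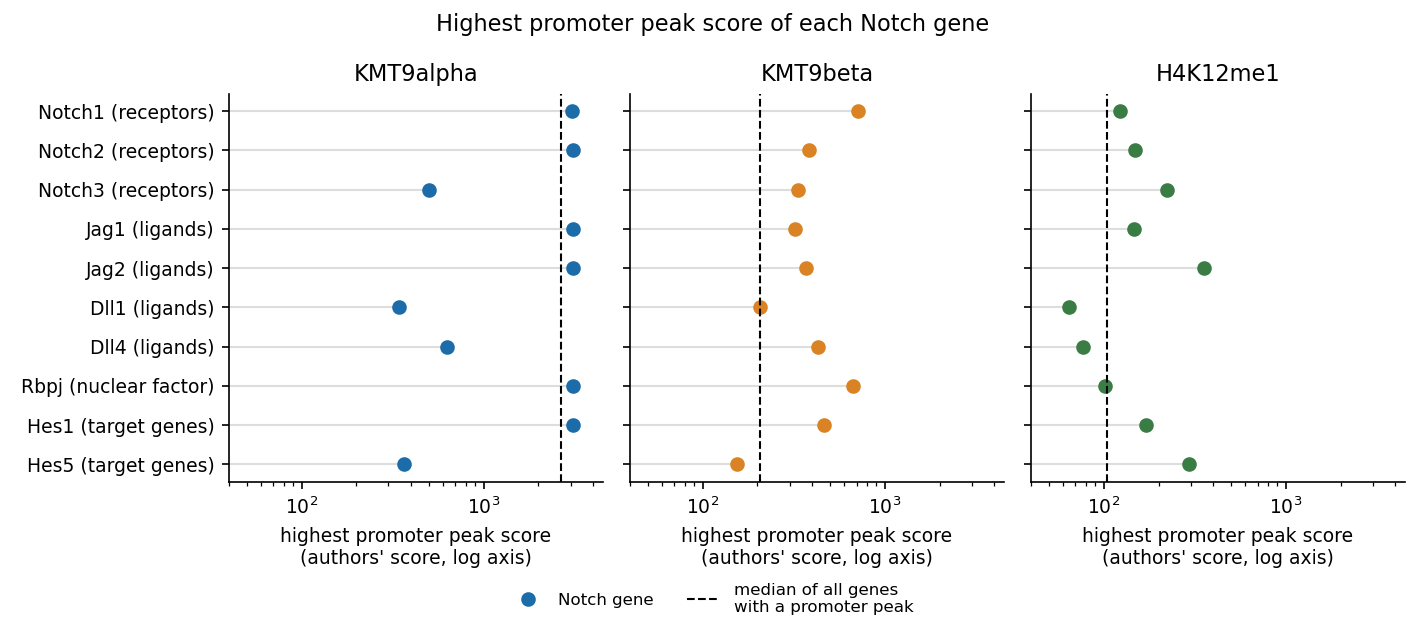
Points give the highest promoter peak score of each gene in the KMT9alpha, KMT9beta and H4K12me1 lists (log axes), and dashed lines the median of all genes with a promoter peak of that library. In KMT9alpha 6 genes lie at or just below 3100 and 4 lie between 342.16 and 631.54, whereas H4K12me1 is highest at Jag2, Hes5 and Notch3.

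Around the starts KMT9beta peaks covered the most bases of the 3 libraries in 7 of the 10 genes, the exceptions being Jag2 and Rbpj, where KMT9alpha covered more, and Hes5, where H4K12me1 did. KMT9beta covered a protein-coding start in 10 of 10 genes, KMT9alpha in 9, H4K12me1 in 8 and each of the 3 in 8. Of all protein-coding genes 61.0%, 51.3%, 33.4% and 26.8% had a start covered by a KMT9beta, a KMT9alpha, an H4K12me1 peak or each of the 3. Among genes with a promoter peak of the library, the shares for KMT9beta, KMT9alpha and H4K12me1 were 93.8%, 94.6% and 74.4%. All bases of the KMT9alpha promoter peaks lay inside KMT9beta peaks at Notch1, Notch2, Notch3, Jag1, Dll1, Dll4 and Hes5, and 93.4%, 91.5% and 76.5% of them did so at Rbpj, Hes1 and Jag2.

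H4K12me1 mostly sat over the start and the first bases of the transcribed part. Positions here are counted in the direction of transcription from the start nearest to the peak's midpoint. At Notch1 the mark ran from -31 to 884 bp, at Notch2 from -50 to 878 bp and at Dll4 from -124 to 577 bp. These 3 peaks began just before the start, and the wider KMT9alpha peaks there began further upstream, at -542, -359 and -223 bp. At Notch2 the mark reached slightly past the end of the KMT9alpha peak, at 857 bp. The midpoint of the highest H4K12me1 promoter peak was downstream of the nearest start in 8 of the 10 genes, against 64.8% of all genes with such a peak, and that of the highest KMT9alpha and KMT9beta peak in 7 each, against 67.9% and 65.6%. The shares of the Notch genes were thus near those of all genes.

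Hes1 and Notch3 were the 2 genes whose start was not covered by the mark. At Hes1 an H4K12me1 peak upstream ran from -1556 to -488 bp with a score of 171.27, and another downstream from 607 to 1191 bp with a score of 66.52, so the mark flanked the start on both sides. KMT9alpha was also split at Hes1: the higher peak, scored 3100, ran from -2507 to 253 bp and the lower, scored 1445.56, from 634 to 2227 bp. KMT9beta left only a short space upstream, with peaks from -2188 to -418 bp and from -367 to 2256 bp. At Notch3 both KMT9alpha and H4K12me1 lay wholly downstream, from 181 to 1594 bp and from 321 to 1431 bp, while KMT9beta ran across the start from -572 to 1653 bp.

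At Dll1 the KMT9alpha peak lay upstream of the start of the transcript in GENCODE's basic set (15375976) and covered the start of a longer transcript at 15376872. A weak H4K12me1 peak with a score of 55.9 covered the first of these starts and another, with 64.59, covered the second. Of the H4K12me1 bases at Dll1 37.6% were also covered by KMT9alpha and 95.5% by KMT9beta. At Hes5, 52.4% of the marked bases were covered by KMT9alpha and 78.7% by KMT9beta, because the mark began further upstream, at -891 bp, than either subunit. At Jag2 these shares were 88.1% and 67.9%, and at the remaining genes they were 97.7% or more.

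**Figure D3:**
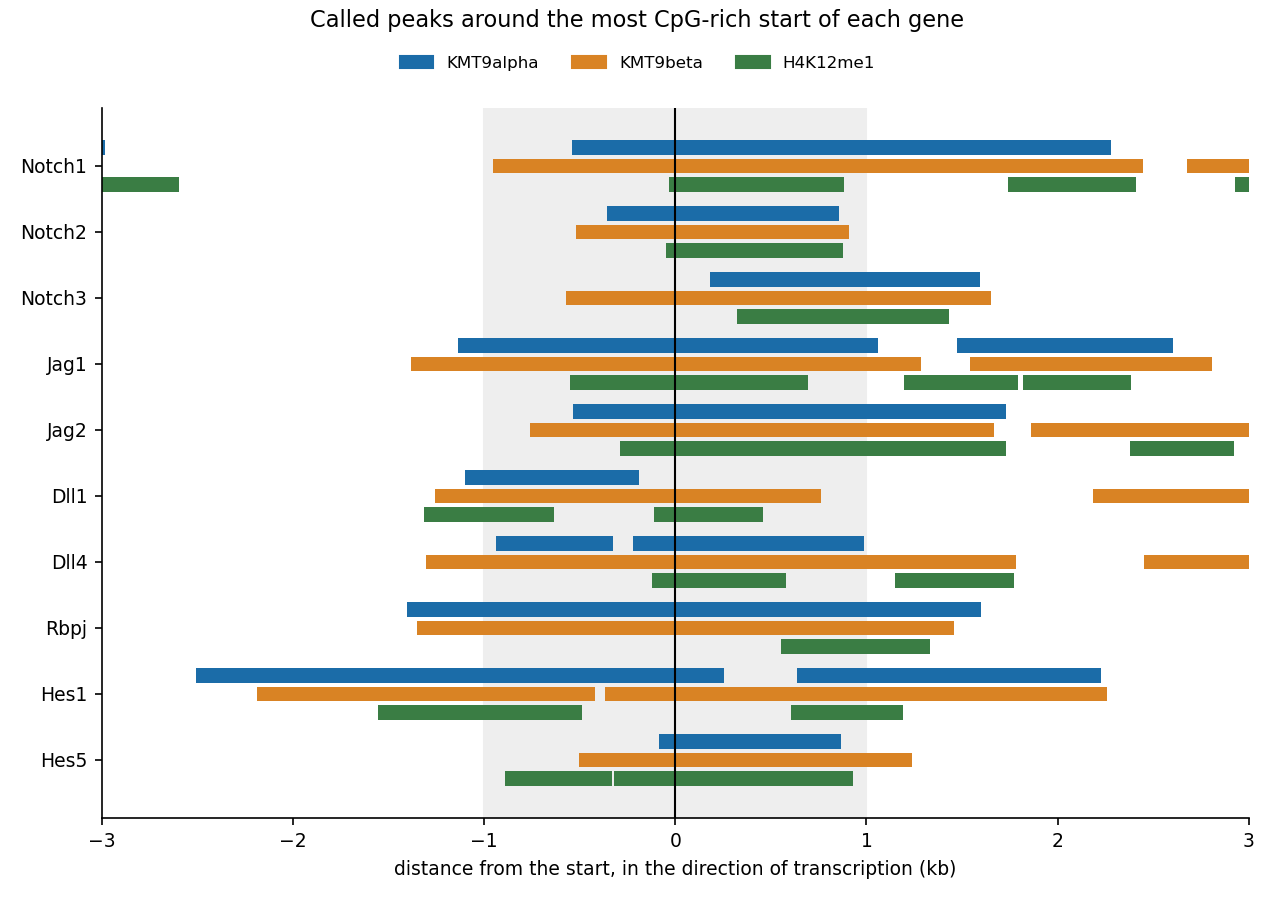
Bars show the called peaks within 3 kb of the most CpG-rich protein-coding start of each gene, in the direction of transcription, with KMT9alpha above KMT9beta above H4K12me1 and the promoter window of 1 kb either side in grey. At Hes1 the H4K12me1 bars lie on both sides of the start, and at Notch3 those of KMT9alpha and H4K12me1 begin downstream of it.

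Several of these genes have more than 1 protein-coding start. At Notch1, Rbpj, Jag2 and Notch3 the most CpG-poor starts had lower-scoring peaks or none. The promoter windows of the Dll1 starts overlap and share their highest peaks, so promoter scores cannot tell these starts apart. By position, the KMT9alpha peak of Dll1 covered the start with a CpG ratio of 0.581 and not the one with 0.73. The H4K12me1 peaks over these Dll1 starts scored 64.59 and 55.9. Notch1 has the start of its transcript in the basic set at 26503822 (CpG ratio 0.702) and that of a transcript outside that set further upstream at 26516663 (CpG ratio 0.193). All 3 libraries were called at the first, whereas the second had KMT9alpha at 251.71 and KMT9beta at 323.2 and no H4K12me1. Of the 6 starts of Rbpj, the group from 53590214 to 53590981 carried all 3, and the starts at 53466152 and 53555834 (CpG ratios 0.284 and 0.371) carried none. Within that group H4K12me1 covered only the last start (CpG ratio 0.862) and not the most CpG-rich (0.926), while both subunits covered all 4 starts. Jag2 has an internal start at 112915957 (CpG ratio 0.336) where KMT9alpha scored 245.47, KMT9beta 58.69 and H4K12me1 118.66, all lower than at its main start. Notch3 has an internal start at 32137825 (CpG ratio 0.14) with no promoter peak of any library.

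In the gene bodies, outside each gene's own promoters, peaks of KMT9beta and H4K12me1 were more numerous than those of KMT9alpha. Whether body peaks lie at starts of other genes was not checked. Altogether the 10 genes held 9 KMT9alpha, 63 KMT9beta and 41 H4K12me1 body peaks, or 0.175, 1.22 and 0.797 per 10 kb of gene. These numbers depended on which peaks were taken: with the 26146 highest-scoring peaks of each list the counts were 9, 21 and 21, and with peaks at or above the median score of each list they were 4, 40 and 22. Over all protein-coding genes the densities were 0.0784, 0.428 and 0.279 per 10 kb. Body peaks of KMT9alpha were found in 5 of the 10 genes, of KMT9beta in 8 and of H4K12me1 in 7, against 19.8%, 49.5% and 41.0% of all protein-coding genes. A longer gene has more room for a body peak, and the median length was 28573 bp for the 10 genes and 17380 bp for all. Hes1 and Hes5, the shortest of the 10 with 3413 and 1449 bp, had no body peak. Most of each lies inside its promoter window, so the definition left little room for one. Without Notch1 the H4K12me1 density was 0.505 per 10 kb, and without any other single gene it lay between 0.711 and 1.18. The KMT9beta density lay between 1.01 and 1.79 when single genes were left out.

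Notch1 carried the most body peaks of H4K12me1, with 18, and 17 of KMT9beta, or 3.06 and 2.89 per 10 kb. KMT9beta peaks covered 57.8% of the gene, H4K12me1 peaks 27.5% and KMT9alpha peaks 10.1%. The highest H4K12me1 body peak (26482089-26483456, in an intron 21050 bp downstream of the start at 26503822) scored 256.12, above the 122.4 of the promoter. It overlapped the highest KMT9beta body peak, which spanned 26477547-26482698 with a score of 609.26. At 26506419-26508008, upstream of that start, an H4K12me1 peak with a score of 194.11 overlapped a KMT9alpha peak with 557.54 and no KMT9beta peak. Notch2, a longer gene than Notch1, held 22 KMT9beta body peaks with scores from 51.42 to 259.72 and 6 of H4K12me1, or 1.61 and 0.438 per 10 kb. Notch3 held 5 and 2, and its KMT9alpha peak in an intron at 32162084-32162910 scored 642.49, above the 497.9 of its promoter.

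Jag2 and Dll4 had body peak densities near those of Notch1. Jag2 held 7 KMT9beta and 6 H4K12me1 body peaks (3.19 and 2.73 per 10 kb), KMT9beta covered 79.2% of its length, and a KMT9beta body peak of 4599 bp with a score of 564 was higher than the 369.17 of its promoter. Dll4 held 3 of each (2.95 per 10 kb for both), and its highest H4K12me1 body peak, in the 3′ UTR at 119334681-119335614, scored 204.38 against 76.81 at the promoter. Dll1 held 2 KMT9beta body peaks and no other. Jag1 held 2 of KMT9beta and 3 of H4K12me1 (0.568 and 0.853 per 10 kb, against 0.428 and 0.279 over all genes). At Jag1, 1 intronic site 2 kb downstream of the start carried all 3 libraries, with 539.3 for KMT9alpha, 110.93 for KMT9beta and 69.84 for H4K12me1.

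Rbpj had 0.261 KMT9beta and 0.157 H4K12me1 body peaks per 10 kb, each the lowest density among the genes with a body peak of that library and below the value over all genes. Its strongest mark was nevertheless away from the promoter: an intronic H4K12me1 peak at 53582469-53583994, 7 kb upstream of the main group of starts, scored 354.2 against 101.7 at the promoter. The same site carried KMT9beta with 363.74 and KMT9alpha with 126.1. The highest H4K12me1 score was in the body rather than at the promoter in 3 of the 7 genes with both (Notch1, Dll4 and Rbpj), against 44.7% of all genes with both. For KMT9beta this was so in 1 of 8 (Jag2), against 29.2%, and for KMT9alpha in 1 of 5 (Notch3), against 13.6%.

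By midpoint, 46 of the 63 KMT9beta body peaks lay in introns and 15 in coding exons, and 34 of the 41 H4K12me1 body peaks lay in introns, 4 in coding exons and 3 in UTRs. Of the H4K12me1 body peaks 29 (70.7%) touched a KMT9beta peak, against 52.0% of the 28428 H4K12me1 body peaks of all genes, and 7 (17.1%) touched KMT9alpha, against 11.7%. Of the 63 KMT9beta body peaks 23 (36.5%) touched H4K12me1, against 29.6%. The 9 KMT9alpha body peaks touched KMT9beta in 6 cases and both partners in 3, shares of 66.7% and 33.3% against 64.4% and 36.0% over all genes.

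**Figure D4:**
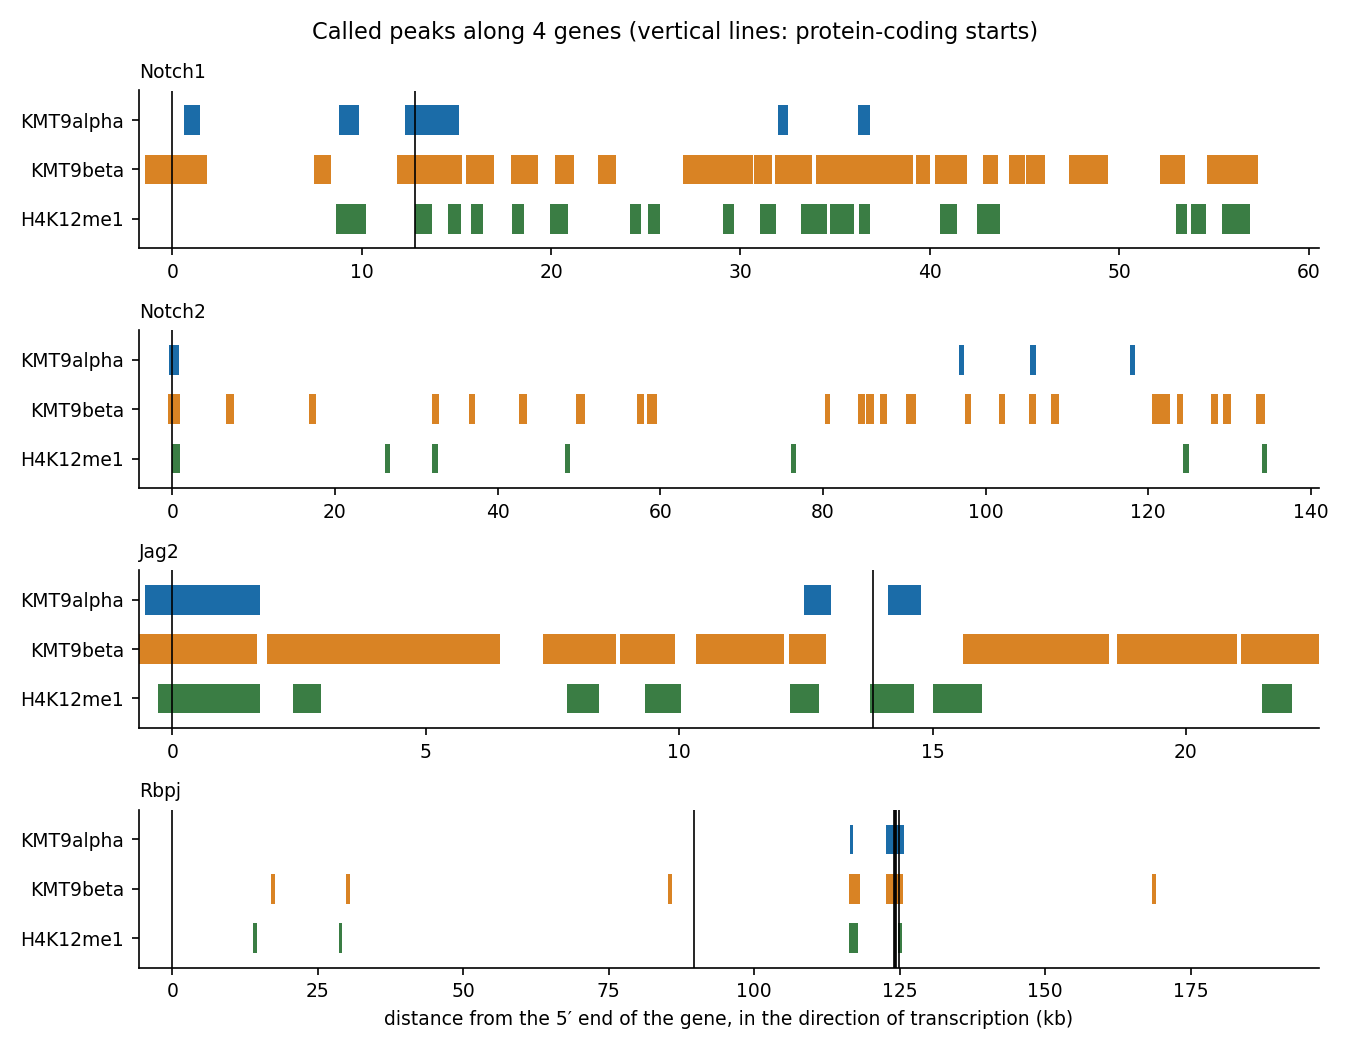
Called peaks of the 3 libraries are drawn to scale along Notch1, Notch2, Jag2 and Rbpj, from the 5′ end of the gene in the direction of transcription (kb), with vertical lines at protein-coding starts. Notch1 and Jag2 are covered by KMT9beta over 57.8% and 79.2% of their length, whereas Rbpj has few peaks outside its main group of starts.

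**Figure D5:**
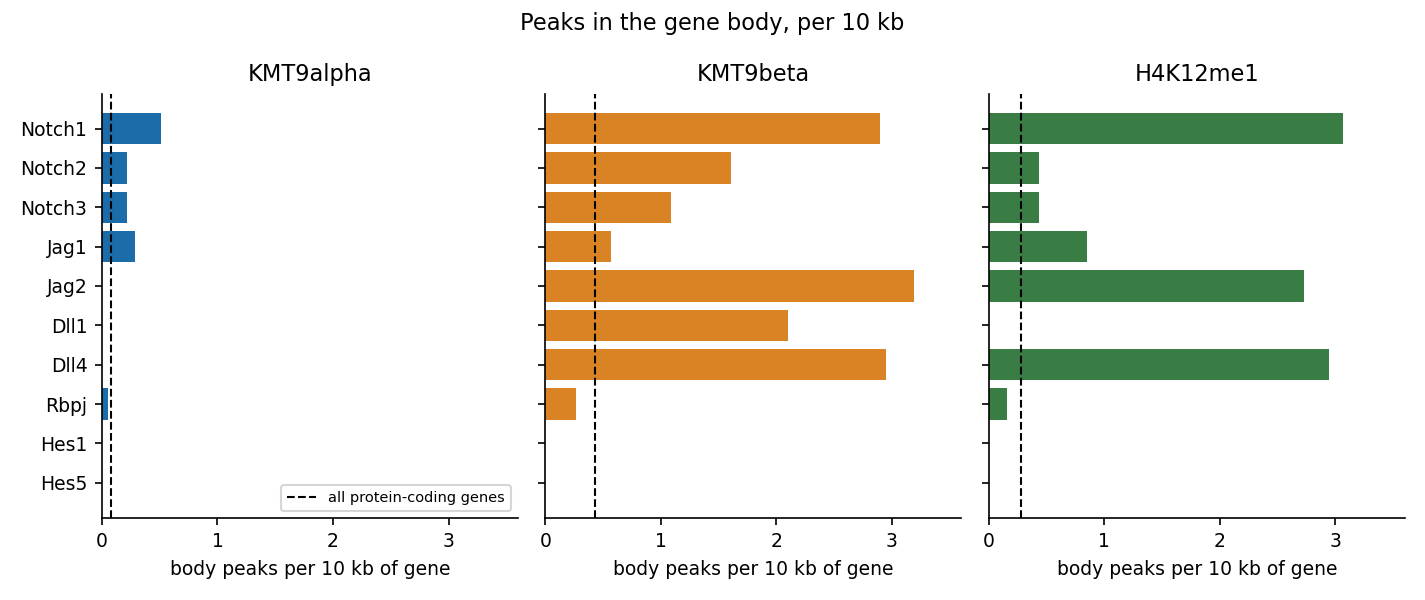
Bars give the number of body peaks per 10 kb of gene for each library, and dashed lines the value over all protein-coding genes. Notch1, Jag2 and Dll4 lie between 2.73 and 3.19 for KMT9beta and H4K12me1. Hes1 and Hes5, which lie mostly inside their promoter windows, have no body peak.

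Another 50 genes of the pathway, listed by role, carried KMT9beta at all 50 promoters, KMT9alpha at 42, H4K12me1 at 33 and all 3 at 31, against the 65.1%, 54.2%, 44.9% and 35.5% of all genes. Of these 50, 21 were in the highest CpG class and 14 in the next. The 6 genes of nuclear corepressors, which act with RBPJ in the absence of a signal, had both subunits in 6 cases and the mark in 5. The 7 coactivator genes, Mastermind and acetyltransferases among them, had both subunits in 7 and the mark in 4. Genes for receptor cleavage, with the gamma-secretase subunits and ADAM proteases, carried KMT9alpha at 9 of 10, KMT9beta at 10 and H4K12me1 at 7. Genes of ubiquitin ligases and trafficking had both subunits in 11 of 11 and the mark in 9, and those of receptor glycosylation had KMT9alpha in 4 of 5, KMT9beta in 5 and the mark in 3.

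The highest KMT9beta scores among the pathway genes with all 3 were those of Neurl1a, a ubiquitin ligase gene, with 3100 for KMT9alpha, 1068.18 for KMT9beta and 197.94 for H4K12me1, and of Dtx4, a Deltex ligase gene, with 3100, 830.8 and 318.48. Both are on chromosome 19, where KMT9alpha was called at 67.1%, KMT9beta at 78.7%, H4K12me1 at 72.3% and all 3 at 60.8% of genes. Hes6, which encodes a protein known to inhibit HES1, had 3100, 602.03 and 308.58, and Nrarp, a feedback inhibitor gene switched on by Notch, had 1724.26, 539.57 and 253. The relatives Notch4, Dll3 and Dlk1 carried only KMT9beta, with scores of 95.48, 267.56 and 65.56, and the same held for the target family genes Heyl and Hes7, with 112.47 and 858.21. Mfng, a receptor glycosylation gene, also carried only KMT9beta, with 389.74. These genes with KMT9beta alone were named after their values were seen. The share of all protein-coding genes with KMT9beta alone was not computed, so these cases cannot be set against it. The KMT9beta list is also the longest, with 90349 peaks used against 26146 for KMT9alpha and 60289 for H4K12me1. Among the 8 target family genes outside the 10, KMT9alpha was called at 5, KMT9beta at 8, H4K12me1 at 5 and all 3 at 4. The shares of all protein-coding genes were 54.2%, 65.1%, 44.9% and 35.5%.

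Among cell type markers, 9 of 10 epithelial genes, such as Epcam, carried both subunits and 7 carried all 3, with no promoter peak at Krt20. Over all genes, KMT9alpha and KMT9beta, counted separately, were called at 54.2% and 65.1%. Of the immune markers 7 of 10, Ptprc and Cd3e among them, had no promoter peak, against 29.6% of all genes, but all 10 were in the 2 lowest CpG classes. KMT9alpha was called at 1, KMT9beta at 2 and H4K12me1 at 1 of the 10 immune markers. The same libraries were called at 2, 7 and 2 of 10 fibroblast and endothelial markers and at 3, 6 and 6 of 10 neuron and glia markers, against 54.2%, 65.1% and 44.9% of all genes. All 3 were called at 0 immune, 1 fibroblast and endothelial, and 2 neuron and glia markers, against 35.5% of all genes. Most epithelial markers were in the middle CpG class or above, and most fibroblast and endothelial markers in the 2 lowest classes. How far CpG content accounts for the marker counts was not tested. Peaks at a promoter do not measure how many cells of a type were present.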

How the data were processed

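Organoid chromatin was immunoprecipitated with 3 antibodies, 1 library each, and sequenced on an Illumina HiSeq. Per the labels the reads were mapped to mm10, with STAR in the protocol and Bowtie2 in the submitters' processing notes, and the peak names in the files begin with MACS. How the score was made is not stated, nor are tool versions, threshold and control. The deposited lists hold a position and a score per peak, called per library (26227 KMT9alpha, 90473 KMT9beta and 60409 H4K12me1 peaks). Only peaks on the autosomes and sex chromosomes entered (26146, 90349 and 60289). Starts in the BED files were raised by 1 to give 1-based positions.

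Genes were those of GENCODE M21 (GRCm38, the assembly of mm10), and no peak ran past a chromosome's end. The CpG ratio was computed over 1 kb either side of a start. Sequences and CpG counts upstream of starts came from RefSeq. The overlap steps gave back all planted peaks when tested on simulated data. The 10 genes, the 50 further pathway genes and the marker lists were chosen with earlier results of these data known. All 10 genes are named. Of the 50, the rule named the 4 with all 3 and the highest KMT9beta scores and up to 6 without any promoter peak, of which there were none. Others (Notch4, Dll3, Dlk1, Mfng, Heyl and Hes7) were named outside it. Tools were pysam 0.24.0, matplotlib 3.10.9, scipy 1.17.1, pandas 2.3.3 and numpy 2.4.6 under Python 3.11.15. Alternatives changed the promoter window, the starts used, the overlap rule, the score threshold and the number of peaks per list.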

Additional observations from a re-analysis of the deposited data

How the results depend on the processing

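The number of the 10 genes with all 3 libraries at the promoter was 10 with windows of 0.5, 2.5 or 5 kb, with starts of every or of basic transcripts, at the same start and, chosen after seeing the data, with bases covered by all 3. It was 8 with peaks at or above the median score of their list and 8 with the same number of peaks (26146) from each list, Dll1 and Dll4 being without H4K12me1 in both. It was 9 when the peak midpoint had to lie in the window (Hes1 without KMT9alpha), and 8 with the most upstream start only (Notch1 without H4K12me1, Rbpj without any). Over the 50 further genes all 3 were called at 26 to 37. Counts of body peaks depended on the score: with peaks at or above the median score they were 4 for KMT9alpha, 40 for KMT9beta and 22 for H4K12me1, with the 26146 highest-scoring peaks of each list 21 for KMT9beta and 21 for H4K12me1, and with promoter peaks included 23 for KMT9alpha. Of the promoter scores recomputed, 244 kept their value, 17 took another and 9 found no peak. No paired analysis was possible because each antibody has 1 library. The unknown depth limits what a missing peak can mean.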

Other observations

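Transcripts of non-coding genes start inside the promoter peaks of 2 of the 10 genes. Gm14207 runs on the opposite strand from Dll4, and Gm20421 on the opposite strand from Hes5, and in both cases a peak of each library covers at least 1 of their starts. Peaks at these promoters cannot be given to 1 of the 2 genes.

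Across the 10 genes the ranks of the highest promoter scores gave a Spearman correlation of 0.51 between KMT9alpha and KMT9beta, 0.21 between KMT9alpha and H4K12me1 and -0.26 between KMT9beta and H4K12me1. Over the 7747 genes with all 3 the values were 0.22, 0.04 and 0.34. These are descriptions over genes of the same 3 libraries, in which genes are not independent and 5 of the 10 KMT9alpha scores are tied at 3100.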
